A study of Arabidopsis thaliana with 32 samples.

Results

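PSI photoinhibition was compared with growth light at ambient CO2 in leaves of Arabidopsis thaliana, ecotype Columbia (Col-0), which carry no transgene or mutation. The comparison takes the 4 samples labelled 400 ppm CO2 PSI-PI and the 4 labelled 400 ppm CO2 GL, 8 of the 32 samples of the series, and all 21525 genes of the table. The other 24 samples received the same 2 light treatments at 0, 100 and 1000 ppm CO2, with 4 biological replicates in each group. PSI-PI leaves passed for 3 h through a repeated cycle of 30 s at the growth irradiance and then 3 rounds in which dim red light, with a wavelength of 660 nm and an irradiance of 35 µmol photons, lasted 5 s and a white pulse of 1000 µmol photons lasted 1 s (both m−2 s−1). GL leaves stayed for 3 h under steady growth light of 100 µmol photons m−2 s−1. The plants of both groups were 6 to 7 weeks old, had grown in an 8 h day and were held at 400 ppm CO2 in a closed chamber. PSI-PI therefore differs from GL in the red light and the pulses as well as in the state of PSI, and in the transcript levels the 2 cannot be told apart.

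PSI is the thylakoid complex that uses light to reduce ferredoxin, and it holds electrons on iron-sulfur clusters on its stromal side. When electrons arrive faster than the acceptors downstream can take them, these clusters are damaged, and the centers that are lost are replaced slowly. Because PSI is one of the largest pools of iron in a leaf, the genes for iron storage, for ferric reduction and for the iron deficiency response are read beside those for light signalling, the thylakoid complexes and carbon metabolism.

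Expression was measured by RNA sequencing and is given as normalized counts, the read counts of a gene after the authors divided each sample by a size factor. Normalized counts summed to 21578962 to 24766909 in PSI-PI-treated leaves and to 21308164 to 21849137 in GL-treated leaves, and plastid-encoded genes took 1.03% to 1.13% of them under PSI-PI and 0.900% to 1.01% in GL. The first principal component of the 8 samples (42.4% of the variance) separated the treatments, with scores of 37.3 to 57.5 for PSI-PI and -50.5 to -41.4 for GL. The second (17.1%) set PSI-PI replicate 2 apart at 61.6 above all other samples, and 680 of 16225 well expressed genes in that sample were more than 1 log2 unit from the mean of the other PSI-PI replicates, against 129 to 326 in those replicates and 88 to 311 in the GL samples. Where leaving out this sample changed how many genes of a list were called, both counts are given. The mesophyll markers were abundant in every sample (summed level 792279 to 1163590 under PSI-PI and 588184 to 760939 in GL), those of guard cells summed to 839 to 1059 under PSI-PI and 936 to 1055 in GL, and those of dividing cells to 16.2 to 42.3 under PSI-PI and 24.7 to 55.2 in GL. Of the 6 mesophyll markers, RCA and CAT2 were upregulated and LHCB1.1 downregulated (and GAPA upregulated without PSI-PI replicate 2). Of 3 phloem markers, AHA3 and APL were higher at an adjusted p under 0.05, by 0.43 and 0.47 on the log2 scale. SUC2 went the other way, with a log2 fold change of -0.26 that did not pass. None of the 15 tested markers of guard cells, phloem companion cells, epidermis, dividing cells and roots was a DEG.

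PSI photoinhibition at 400 ppm CO2 changed 1330 of 21469 tested genes, the differentially expressed genes (DEGs, which differ at least 2-fold and have a limma adjusted p under 0.05), or 6.19% of those tested. Upregulated DEGs numbered 705 (3.28%) and downregulated DEGs 625 (2.91%). At an adjusted p under 0.05 without a minimum fold change, 2960 genes were higher (13.8%) and 2366 lower (11.0%) in PSI-PI-treated leaves. Few changes were large, since 91 genes rose and 79 fell by 4-fold or more, and the median log2 fold change of all tested genes was -0.01. The 4 PSI-PI values lay wholly above or below the 4 GL values for 7325 genes (34.1% of those tested) and for 1206 of the DEGs. Fold changes come from log2 of the normalized count plus 1 and are given with their standard error, and they understate the change of genes with low counts. In whole leaves, fewer cells of a type and less RNA per cell cannot be told apart.

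**Figure D1:**
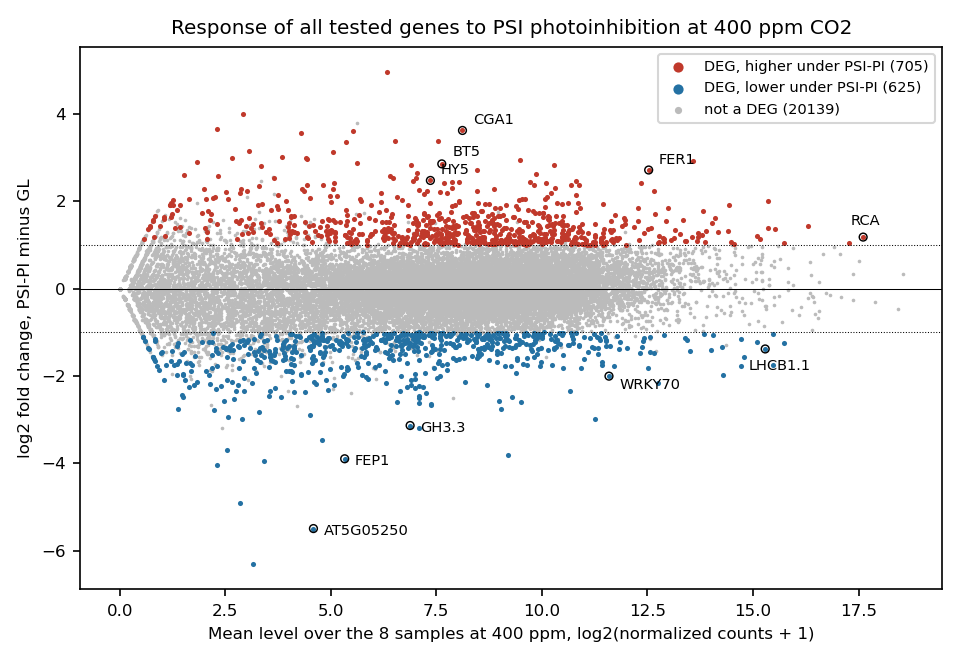
Each point is a tested gene, with its mean level over the 8 samples at 400 ppm CO2 on the horizontal axis and the log2 fold change of PSI-PI minus GL on the vertical axis, and dotted lines mark a log2 fold change of 1 in either direction. The 705 upregulated and 625 downregulated DEGs are found at all levels, and CGA1, FER1, AT5G05250 and other genes described in the text are circled.

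The 12 largest rises and 12 largest falls among DEGs with at least 10 normalized counts in a treatment and no overlap between treatments are described first. CGA1 is a GATA transcription factor that promotes chloroplast development and chlorophyll formation. It had 935, 818, 1079 and 1092 normalized counts in PSI-PI-treated leaves, against 81.5, 67.0, 80.6 and 85.5 in GL-treated leaves (log2 fold change 3.62 ± 0.28, limma adjusted p = 8.73e-10). All PSI-PI values were more than 9 times any GL value. The largest of the 12 fitted rises belonged to AT5G42825, an uncharacterized protein, with 433, 629.5, 324 and 453 normalized counts under PSI-PI, against 35.7, 8.26, 5.50 and 18.1 in GL (log2 fold change 4.97 ± 0.54, limma adjusted p = 2.15e-07). Its GL samples were low but spread over more than 6-fold. The cysteine proteinase AT2G27420 had 385, 551, 846 and 689 normalized counts under PSI-PI, against 21.6, 59.6, 82.4 and 95.1 in GL (log2 fold change 3.37 ± 0.53, limma adjusted p = 2.62e-05). The serinc-domain protein AT3G24460 had 177, 301, 407 and 356 under PSI-PI, against 25.3, 21.1, 37.6 and 28.5 in GL (log2 fold change 3.38 ± 0.34, limma adjusted p = 5.38e-08). In both genes every PSI-PI value was at least 4 times the highest GL value.

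The other large rises were of genes at lower levels. The pectin lyase-like protein AT1G60590 rose with widely spread values, 112, 45.0, 378 and 350.5 normalized counts under PSI-PI, against 2.80, 11.0, 14.6 and 41.7 in GL (log2 fold change 3.62 ± 0.86, limma adjusted p = 0.00247). Its lowest PSI-PI sample, replicate 2, lay just above its highest GL sample, replicate 4. AT3G10185, a gibberellin-regulated family protein, rose by 3.56 on the log2 scale, AT5G64190, a protein of unknown role, by 3.36, and AT2G29370, an NAD(P)-binding Rossmann-fold protein, by 3.02. The lipid-transfer family protein AT1G48750 had 36.7, 24.6, 41.7 and 19.8 normalized counts under PSI-PI, against 0, 0, 11.9 and 0 in GL, and the uncharacterized proteins AT1G33055 and AT1G24851 also had GL samples listed at 0. AT1G33055 had 20.1, 7.22, 21.3 and 22.7 under PSI-PI, against 0, 0, 0.916 and 0.952 in GL. In all 3 the level under PSI-PI stayed below 42 normalized counts, so that the size of the fold depends on the added 1. The plant defensin PDF1.2B rose by 3.14 ± 0.91 on the log2 scale, and without GL replicate 2 its limma adjusted p was 0.052. Its near-identical copy PDF1.2 rose with it (518, 335, 442 and 556 normalized counts under PSI-PI, against 115, 107, 75.3 and 237 in GL), and reads shared by such copies are divided by estimation, so that the value of each is uncertain.

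Among the 12 largest falls, AT3G57700, a protein kinase, was listed at 0 in all 4 PSI-PI samples, against 92.5, 69.2, 62.6 and 94.0 normalized counts in GL (limma adjusted p = 0.000316), and no fold is given for it. It belongs to a family of near-identical kinases, so that its value is uncertain. The defense glucanase BG3 (beta-1,3-glucanase 3) had 203, 133, 69.9 and 320.1 normalized counts in PSI-PI-treated leaves, against 3015, 1823, 1949 and 2174 in GL-treated leaves (log2 fold change -3.80 ± 0.51, limma adjusted p = 3.92e-06). The legume lectin family protein AT5G03350 had 812, 502, 397 and 3377 under PSI-PI, against 5702, 6274, 7179 and 8635 in GL (log2 fold change -2.99 ± 0.86, limma adjusted p = 0.0105). Both groups stood apart in both genes, and PSI-PI replicate 4 was the highest of its group in each. WRKY38, a WRKY factor of defense, had 46.1, 44.2, 15.2 and 119 normalized counts under PSI-PI, against 373, 361, 429.6 and 503 in GL (log2 fold change -3.20 ± 0.76, limma adjusted p = 0.00236). Its relative WRKY62 was at 0 in 2 PSI-PI samples and at 5.18 and 8.14 in the others, against 48.9, 31.2, 41.3 and 44.9 in GL. The glucosyltransferase UGT76E1 and the peptide RGF6 were listed at 0 in 3 of 4 PSI-PI samples, against 28.1, 44.0, 44.9 and 40.8 and 33.8, 4.63, 37.9 and 20.5 normalized counts in GL. EXPB1, a beta-expansin that loosens cell walls, had 7.11, 4.53, 5.08 and 16.2 under PSI-PI, against 94.7, 79.1, 85.7 and 106 in GL (log2 fold change -3.47 ± 0.49, limma adjusted p = 6.32e-06). The bHLH factor AT3G21330 had 2.36, 0, 0 and 1.03 normalized counts under PSI-PI, against 15.9, 23.9, 25.6 and 16.1 in GL. The other 3 of the 12 largest falls, AT5G05250, FEP1 and GH3.3, are described with their pathways.

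The promoters of iron, clock and Rubisco genes that changed are shown because each holds the G-box, and several also the I-box. Sequences are 250 bases before the annotated gene start, read 5′ to 3′ on the strand of the gene from the RefSeq assembly TAIR10.1, whereas the authors counted on TAIR10 cDNA. Capitals mark CACGTG, the G-box core bound by bZIP and bHLH factors such as HY5 and the PIFs, and GATAAG or its reverse complement, the I-box bound by GATA and MYB-related factors.
FER3 (AT3G56090, chr3:20816036-20816285, minus strand, log2 fold change 2.38): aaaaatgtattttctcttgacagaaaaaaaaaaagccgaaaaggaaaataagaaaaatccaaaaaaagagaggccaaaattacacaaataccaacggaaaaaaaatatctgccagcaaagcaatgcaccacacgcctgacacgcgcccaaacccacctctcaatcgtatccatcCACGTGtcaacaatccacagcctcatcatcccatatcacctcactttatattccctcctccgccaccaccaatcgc
FRO6 (AT5G49730, chr5:20204596-20204845, minus strand, log2 fold change 1.84): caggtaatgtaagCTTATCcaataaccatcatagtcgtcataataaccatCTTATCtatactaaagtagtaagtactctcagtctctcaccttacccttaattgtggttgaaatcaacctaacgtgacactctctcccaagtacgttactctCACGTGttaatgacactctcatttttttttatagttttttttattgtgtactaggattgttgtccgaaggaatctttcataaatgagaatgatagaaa
FRO7 (AT5G49740, chr5:20208778-20209027, minus strand, log2 fold change 1.84): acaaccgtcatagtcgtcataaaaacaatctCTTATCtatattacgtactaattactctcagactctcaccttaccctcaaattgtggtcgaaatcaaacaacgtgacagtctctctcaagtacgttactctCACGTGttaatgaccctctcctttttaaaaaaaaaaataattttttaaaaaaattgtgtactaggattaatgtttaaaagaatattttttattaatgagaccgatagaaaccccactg
AT5G05250 (chr5:1558487-1558736, minus strand, log2 fold change -5.49): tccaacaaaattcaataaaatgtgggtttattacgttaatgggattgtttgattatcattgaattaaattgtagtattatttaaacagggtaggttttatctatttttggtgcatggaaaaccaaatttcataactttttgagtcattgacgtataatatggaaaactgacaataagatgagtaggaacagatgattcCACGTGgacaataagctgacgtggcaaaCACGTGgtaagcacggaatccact
RVE1 (AT5G17300, chr5:5692993-5693242, minus strand, log2 fold change 2.87): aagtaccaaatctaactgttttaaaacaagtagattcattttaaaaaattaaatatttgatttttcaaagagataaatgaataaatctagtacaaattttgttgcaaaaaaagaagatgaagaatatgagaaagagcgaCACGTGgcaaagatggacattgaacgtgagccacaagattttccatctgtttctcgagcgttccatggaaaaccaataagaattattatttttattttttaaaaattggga
RBCS2B (AT5G38420, chr5:15382072-15382321, minus strand, log2 fold change 1.04): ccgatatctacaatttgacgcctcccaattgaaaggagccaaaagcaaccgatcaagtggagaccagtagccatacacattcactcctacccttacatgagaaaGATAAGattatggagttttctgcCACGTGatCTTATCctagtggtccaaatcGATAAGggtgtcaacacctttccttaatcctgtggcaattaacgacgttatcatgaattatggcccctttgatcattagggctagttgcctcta

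The G-box begins 76 bases before the start of FER3, which rose, and 52 and 24 bases before the start of AT5G05250, which fell. The tandem neighbours FRO6 and FRO7 each hold 1 G-box, 98 and 118 bases before the start, and FRO6 holds 2 I-boxes and FRO7 1. RBCS2B holds 1 G-box between 3 I-boxes. Over all 21280 tested genes with such a window, 7.2% held CACGTG, compared with 8.7% of 701 upregulated and 9.0% of 625 downregulated DEGs. GATAAG was found in 12.4% of all windows, in 20.3% of those of upregulated DEGs and in 10.7% of those of downregulated DEGs. Both strands were searched for 14 motifs in all, and no test was made.

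The other motifs are given as their share of all windows, of upregulated and of downregulated DEGs. The evening element AAATATCT was in 5.1%, 7.3% and 5.8%, and AAAAATCT, bound by CCA1, in 6.7%, 7.6% and 4.3%. The ABRE-like letters CCACGT were in 8.9%, 13.4% and 11.2%, and ACGTGTC in 4.1%, 6.4% and 4.2%. TGACG was in 19.3%, 19.0% and 24.2%, the copper response core GTAC in 34.7%, 37.7% and 36.2%, the auxin response element TGTCTC in 10.8%, 10.7% and 13.1%, while the W-box TTGACC was in 12.2% of all windows and 14.1% of those of downregulated DEGs. The heat shock core GAANNTTC was in 9.5%, 9.6% and 14.1%, GGCCCA in 16.0%, 10.3% and 12.8%, and the I-box core GATAA in 55.2%, 61.6% and 48.8%. The iron-dependent regulatory sequence of FER1, searched as its consensus, was in none of these windows, that of FER1 itself included. Because this search did not find the element in the gene it is named for, it cannot show that other promoters lack it. The ABRE-like motifs can share bases with the G-box, and the I-box core lies within the I-box. None of the 12 light-signalling genes chosen by the study held CACGTG or GATAAG within its window. A match is a description of letters and not of binding.

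Under PSI-PI, 3 of 4 ferritin genes and 3 of 7 tested ferric reductase genes rose, and 4 of 9 iron peptides and deficiency markers fell. Of 22 iron genes that the study chose, 12 were upregulated DEGs, 5 were downregulated DEGs and 5 were not called. The study chose this list on these samples, so that its count is not independent evidence. The ferritins and reductases that rose and the deficiency markers that fell all belong to it, so that their counts are not independent either. Leaving out PSI-PI replicate 2 gave 11 and 4.

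Ferritins store iron inside plastids in a form that cannot react with oxygen. FER1 had 15171, 28077, 15763 and 7918 normalized counts in PSI-PI-treated leaves, against 1771, 3947, 5215 and 783 in GL-treated leaves (log2 fold change 2.72 ± 0.54, limma adjusted p = 0.000473). FER3 had 2169, 2764, 2437 and 1184 under PSI-PI, against 338, 466, 650.3 and 231 in GL (log2 fold change 2.38 ± 0.43, limma adjusted p = 0.000149). FER4, which also reaches mitochondria, had 1272, 1445, 1497 and 1300.1 under PSI-PI, against 566, 797, 818 and 311 in GL (log2 fold change 1.24 ± 0.28, limma adjusted p = 0.0017). The groups did not overlap in any of the 3. GL replicate 4 was the lowest GL sample for all of them, PSI-PI replicate 4 was the lowest PSI-PI sample for FER1 and FER3, and without GL replicate 4 the log2 fold change of FER4 was 0.94 and no longer reached 1. The seed ferritin FER2 was near 0 in all samples (3.54, 2.71, 2.03 and 1.03 under PSI-PI, against 3.75, 2.75, 2.75 and 1.90 in GL).

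Ferric reductases (FRO) convert ferric to ferrous iron at membranes. FRO7, the reductase of the chloroplast envelope, had 8315, 8110.2, 10828 and 10943 normalized counts under PSI-PI, against 2011, 2433, 3138 and 3131 in GL (log2 fold change 1.84 ± 0.24, limma adjusted p = 3.09e-06). FRO6, the reductase of the leaf plasma membrane, had 15648, 9853, 18641 and 18681 under PSI-PI, against 3917, 3947, 4658 and 4563 in GL (log2 fold change 1.84 ± 0.40, limma adjusted p = 0.00117). FRO1 was far less abundant, with 61.3, 61.2, 106 and 70.1 normalized counts under PSI-PI, against 7.47, 22.0, 13.7 and 17.1 in GL (log2 fold change 2.29 ± 0.34, limma adjusted p = 1.39e-05). In each of the 3 genes every PSI-PI value was above every GL value. The other 4 tested members of the family were not called.

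The SOUL family contains heme-binding proteins of the cytosol and chloroplast. All 6 tested members were higher at an adjusted p under 0.05 and 4 were upregulated DEGs (3 without PSI-PI replicate 2). cHBP1 had 3186, 4135, 3787 and 3469 normalized counts under PSI-PI, against 669, 1021, 1312 and 1159 in GL (log2 fold change 1.84 ± 0.20, limma adjusted p = 2.54e-07). cHBP3 rose by 1.57 ± 0.17 and cHBP2 by 1.07 ± 0.18 on the log2 scale, and cHBP2 reached 0.94 without PSI-PI replicate 2 and 0.91 without GL replicate 1. AT1G78460, another member, had 11866, 9676, 9885 and 8623 under PSI-PI, against 6849, 5921, 3325 and 4054 in GL. Its groups stood apart, although the GL values spread over 2-fold, and without PSI-PI replicate 1, GL replicate 3 or GL replicate 4 its log2 fold change was 0.95, 0.86 or 0.96.

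Iron-sulfur clusters of chloroplast proteins are built by the SUF machinery and passed on by NFU scaffolds. Of 16 tested genes of this list, 2 were upregulated DEGs and 9 in all were higher at an adjusted p under 0.05, with a median log2 fold change of 0.38. NEET, an iron-sulfur protein that can transfer its cluster, had 1691, 1647, 2297 and 2557 normalized counts under PSI-PI, against 533, 941, 1086 and 576 in GL (log2 fold change 1.42 ± 0.38, limma adjusted p = 0.0069). The scaffold NFU3, needed for the clusters of PSI, had 1234, 1009.9, 1220.3 and 1192 under PSI-PI, against 525, 603, 567 and 569 in GL (log2 fold change 1.04 ± 0.14, limma adjusted p = 5.1e-06). Both genes had every PSI-PI sample above every GL sample. SUFB, a subunit of the main assembly scaffold, was higher by 0.78 ± 0.14 (limma adjusted p = 0.000157) and did not reach the fold threshold. The rubredoxin-like ENH1 had 8750, 8789, 9891 and 10581 normalized counts under PSI-PI, against 2997, 4259, 4318 and 3265 in GL (log2 fold change 1.37 ± 0.21, limma adjusted p = 2.28e-05), and the pyruvate kinase family protein AT3G49160 rose by 1.83 ± 0.36.

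Of the 9 iron peptides and deficiency markers, 1 rose and 4 fell (3 without PSI-PI replicate 2). AT5G05250, an uncharacterized protein, had 1.18, 2.71, 3.04 and 4.13 normalized counts in PSI-PI-treated leaves, against 168, 71.6, 94.3 and 584 in GL-treated leaves (log2 fold change -5.49 ± 0.70, limma adjusted p = 1.8e-06). The peptide FEP1, which promotes the iron deficiency response, had 8.46, 16.8, 4.49 and 11.7 under PSI-PI, against 105, 60.2, 139 and 629 in GL (log2 fold change -3.89 ± 0.65, limma adjusted p = 5.62e-05). AT3G56360, another uncharacterized protein, had 358, 137, 211 and 756 under PSI-PI, against 2049, 1327, 1108 and 3408 in GL (log2 fold change -2.59 ± 0.40, limma adjusted p = 2.06e-05). None of the 3 overlapped between treatments, and GL replicate 4 was the highest sample in each. IRP3 was listed at 0 in all PSI-PI samples, against 0.944, 2.77, 5.53 and 42.2 in GL (limma adjusted p = 0.0415), and its limma adjusted p was 0.0686 to 0.198 without any 1 sample other than GL replicates 1 and 2, and 0.154 with 5 in place of 1 added before the logarithm. FIT, the bHLH factor that directs iron uptake in roots, had 55.2, 63.7, 35.2 and 61.6 under PSI-PI, against 137, 139.6, 75.6 and 95.6 in GL (log2 fold change -1.03 ± 0.23, limma adjusted p = 0.00124). Its levels were low in these leaves, and without PSI-PI replicate 3, GL replicate 1 or GL replicate 2 its log2 fold change was -0.84, -0.92 or -0.91.

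Other members of the study's list were not called. BHLH101 had 1.26, 3.87, 3.25 and 6.64 normalized counts under PSI-PI, against 2.01, 0, 3.89 and 17.8 in GL. FEP2 was listed at 0 in all PSI-PI samples and in 2 GL samples, and the defensin-like gene DEFL was at 0 in 3 PSI-PI samples and 1 GL sample. The vacuolar iron transporter-like gene VTL2 was higher by 0.92 ± 0.25 (limma adjusted p = 0.0073) and stayed under the fold threshold, and VTL1 had a log2 fold change of 0.61 ± 0.26 (limma adjusted p = 0.0881).

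The iron regulators, some of them in the study's list, were mixed. Of 17 regulators tested, MYB72, a MYB factor of iron uptake, was upregulated (1.47 ± 0.41, at 12.2 to 15.4 normalized counts under PSI-PI, against 1.84 to 9.40 in GL, with a log2 fold change of 0.97 when 5 was added) and 2 were downregulated. These were FIT, described above as a member of the study's list, and BTSL1, which is outside it. BTSL1, a ubiquitin ligase that limits FIT, had 1.17, 3.58, 4.02 and 3.07 under PSI-PI, against 7.43, 7.30, 11.8 and 34.9 in GL, and lost its call without any of 4 samples (limma adjusted p = 0.0554 to 0.149, the highest without GL replicate 4). ILR3, which acts on the ferritin genes, had a log2 fold change of 0.10 (limma adjusted p = 0.382). Of 19 tested genes of iron transport and nicotianamine synthesis, NAS3 (1.51 ± 0.51) and the organelle transporter IREG3 (1.14 ± 0.19) were upregulated (IREG3 alone without PSI-PI replicate 2), and the call of NAS3 was lost without any of 5 samples (limma adjusted p = 0.06 to 0.158, the highest without GL replicate 4). OPT3, which loads iron into the phloem, had a log2 fold change of -0.85 ± 0.24 and ZIF1, a vacuolar carrier of nicotianamine, one of -0.93 ± 0.26, both lower at an adjusted p under 0.05 without reaching the fold threshold. Unlike the other deficiency markers, the chloroplast protein CGLD27 rose, by 1.05 ± 0.15 (0.91 without GL replicate 1). IMA1, a peptide related to FEP1, was at 0 in 3 PSI-PI and 2 GL samples.

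**Figure D2:**
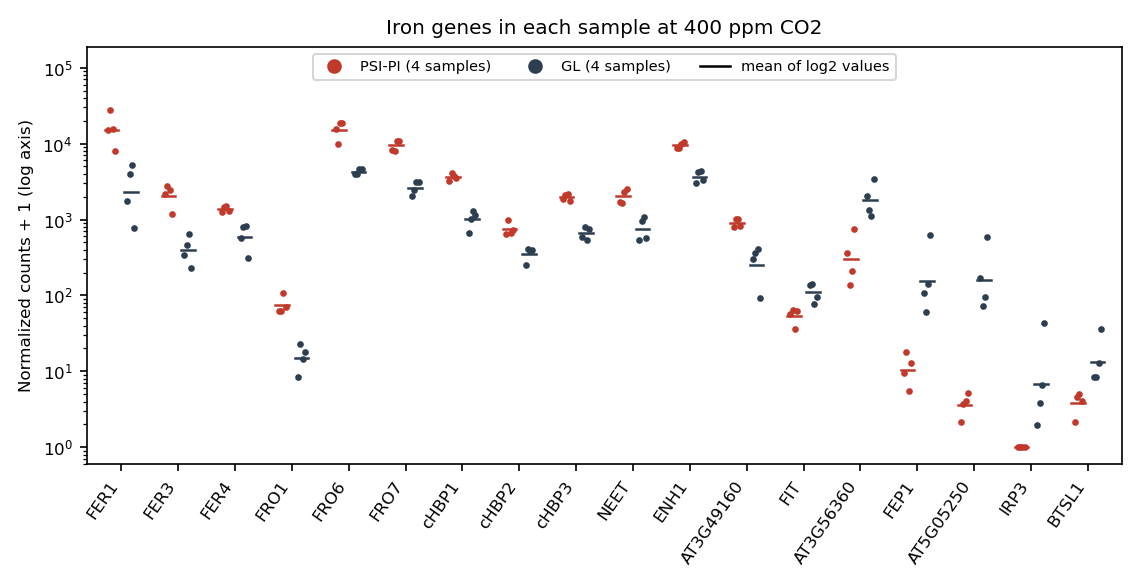
Normalized counts plus 1 of 18 iron genes (log axis) in each of the 4 PSI-PI samples (left of each pair) and 4 GL samples (right), where a dot is a sample and a line the mean of the log2 values. PSI-PI samples lie above GL samples from FER1 to AT3G49160 and below them from FIT to BTSL1, and the top GL dot of FEP1, AT5G05250, IRP3 and BTSL1 is replicate 4.

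Light signalling genes split into a group that rose and a group that fell. HY5 and HYH are bZIP factors that promote photomorphogenesis, and COP1 with the SPA proteins directs their breakdown in darkness. PIFs and the shade genes act in the opposite direction. Of 12 light-signalling genes that the study chose on these samples, 6 were upregulated and 5 downregulated DEGs, with and without PSI-PI replicate 2, and this count too is not independent evidence.

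HY5 had 252, 364, 477 and 509.6 normalized counts in PSI-PI-treated leaves, against 56.1, 68.3, 76.5 and 75.9 in GL-treated leaves (log2 fold change 2.48 ± 0.29, limma adjusted p = 5.05e-07). HYH had 183, 335, 339 and 384 under PSI-PI, against 43.4, 49.9, 71.1 and 93.9 in GL (log2 fold change 2.26 ± 0.31, limma adjusted p = 5.53e-06). PSI-PI replicate 1 was the lowest of its group for both and was still well above the highest GL value. SIG5, a nuclear-encoded sigma factor that carries light signals to plastid transcription, had 1151, 2071, 2384 and 2534 under PSI-PI, against 266, 328, 479.7 and 401 in GL (log2 fold change 2.43 ± 0.35, limma adjusted p = 7.78e-06). The F-box protein AFR had 248, 264, 426 and 450.4 under PSI-PI, against 62.8, 66.1, 74.2 and 81.8 in GL (log2 fold change 2.23 ± 0.30, limma adjusted p = 3.54e-06). The CONSTANS-like factor COL2 had 354, 419, 632 and 475 under PSI-PI, against 98.2, 90.8, 105 and 107 in GL (log2 fold change 2.19 ± 0.28, limma adjusted p = 1.83e-06). All 5 genes rose by more than 4-fold without overlap. AT5G18404, an uncharacterized protein, rose by 1.54 ± 0.29.

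PIL1, a bHLH gene of shade responses, had 9.17, 8.75, 5.90 and 4.01 normalized counts under PSI-PI, against 30.0, 53.8, 32.5 and 41.5 in GL (log2 fold change -2.37 ± 0.39, limma adjusted p = 5.87e-05). RPGE proteins repress photosynthesis genes through GLK1, a factor of chloroplast development. RPGE3 had 371, 408, 136 and 249 under PSI-PI, against 1230.1, 1948, 1349.9 and 1507 in GL (log2 fold change -2.47 ± 0.41, limma adjusted p = 5.45e-05). RPGE1 fell by 2.35 ± 0.50 at low counts and RPGE4 fell by 1.28 ± 0.32, and no value overlapped in any of the 3 RPGE genes. GLK1 itself had a log2 fold change of -0.48 ± 0.15 (lower, limma adjusted p = 0.0232, not a DEG), and GLK2 had a log2 fold change of 0.08 ± 0.11. SIB1, which binds sigma factors, had 768, 901, 602 and 1275 under PSI-PI, against 2061, 2839, 2247 and 2674 in GL (log2 fold change -1.51 ± 0.30, limma adjusted p = 0.000373). PIL2 was the only one of the 12 not called, with 17.1, 28.2, 17.7 and 44.1 normalized counts under PSI-PI, against 22.7, 39.8, 46.0 and 51.4 in GL.

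Of 9 genes of HY5 with COP1, SPA and RUP, 8 were higher at an adjusted p under 0.05 and 4 were upregulated DEGs (5 without PSI-PI replicate 2, with RUP1), with a median log2 fold change of 0.94. SPA3 had 1622, 2146, 2198 and 2158 normalized counts under PSI-PI, against 435, 592, 752 and 859 in GL (log2 fold change 1.66 ± 0.21, limma adjusted p = 2.08e-06). RUP2, which switches off the UV-B receptor, rose by 1.11 ± 0.25, while COP1 was higher by 0.62 ± 0.11, below the fold threshold. SPA1 had a log2 fold change of 0.39 ± 0.17 (limma adjusted p = 0.089) and was the member that did not pass. Among 14 PIF and shade genes, PIF8 rose by 1.12 ± 0.26 and the shade marker ATHB2 fell by 1.01 ± 0.22 together with PIL1. PIF4 had a log2 fold change of 0.12 ± 0.17. Of 12 photoreceptors, CRY3, an organelle cryptochrome, was upregulated (1.19 ± 0.26). RUP2, PIF8, ATHB2 and CRY3 were close to the fold threshold and passed below it without 1 or more single samples, with 0.95 (RUP2), 0.97 (PIF8) and 0.99 (CRY3) without PSI-PI replicate 3 and -0.96 to -0.94 for ATHB2 without any of 4 samples.

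B-box (BBX) zinc finger factors act with HY5 or against it. Of 25 tested, 6 were upregulated and 2 downregulated DEGs (1 without PSI-PI replicate 2). BBX31 had 56.7, 145, 138 and 104 normalized counts under PSI-PI, against 9.39, 30.3, 33.0 and 36.2 in GL (log2 fold change 2.06 ± 0.38, limma adjusted p = 0.000229). BBX7 had 674, 410.0, 542 and 574 under PSI-PI, against 223, 174, 183 and 182 in GL (log2 fold change 1.51 ± 0.26, limma adjusted p = 9.19e-05). COL2, BBX32 (1.43), BBX18 (1.38) and BBX30 (1.16) also rose, and BBX30 overlapped between treatments and stood at 1.0 without GL replicate 1. BBX17 had 126, 31.2, 55.4 and 64.9 under PSI-PI, against 466, 261, 226 and 167 in GL (log2 fold change -2.07 ± 0.44, limma adjusted p = 0.000834). BBX14 fell by 1.1 ± 0.28, but its PSI-PI replicate 1 (3548) lay within the GL values, and without PSI-PI replicate 2, PSI-PI replicate 4 or GL replicate 1 its log2 fold change was between -0.98 and -0.96. Of 8 genes in the sigma factor list, which also holds the binding protein SIB1, SIG4 rose beside SIG5 (1.16 ± 0.13). SIB1 was the 1 downregulated DEG of that list.

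The circadian clock times growth and photosynthesis to the day. Of 25 clock genes, 8 were upregulated DEGs, none fell past both thresholds, and the median log2 fold change was 0.53. RVE1, a MYB-like factor that links the clock to auxin, had 99.1, 96.4, 189 and 174 normalized counts in PSI-PI-treated leaves, against 20.6, 16.5, 16.5 and 16.1 in GL-treated leaves (log2 fold change 2.87 ± 0.41, limma adjusted p = 7.69e-06). RVE4 had 1669, 1283, 1646 and 1964 under PSI-PI, against 518, 590.3, 621 and 663 in GL (log2 fold change 1.44 ± 0.13, limma adjusted p = 1.52e-08). RVE8, which activates evening genes together with RVE4, had 149, 324, 240.3 and 265 under PSI-PI, against 70.6, 101, 111 and 125 in GL (log2 fold change 1.23 ± 0.28, limma adjusted p = 0.00162). None of these overlapped. RVE2 (1.8), RVE7 (1.19) and their partners LNK2 (1.0), LNK3 (1.06) and LNK4 (1.02) rose as well. Without GL replicate 1 the LNK genes had log2 fold changes of 0.98, 0.90 and 0.96 in that order, and LNK2 reached 0.86 without PSI-PI replicate 4. CCA1 was higher by 0.95 ± 0.28 below the fold threshold, and LHY had a log2 fold change of 0.13 ± 0.27. By the study's methods, plants entered the treatment chamber at a set hour of the late morning, and leaves were taken after the 3 h of treatment.

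**Figure D3:**
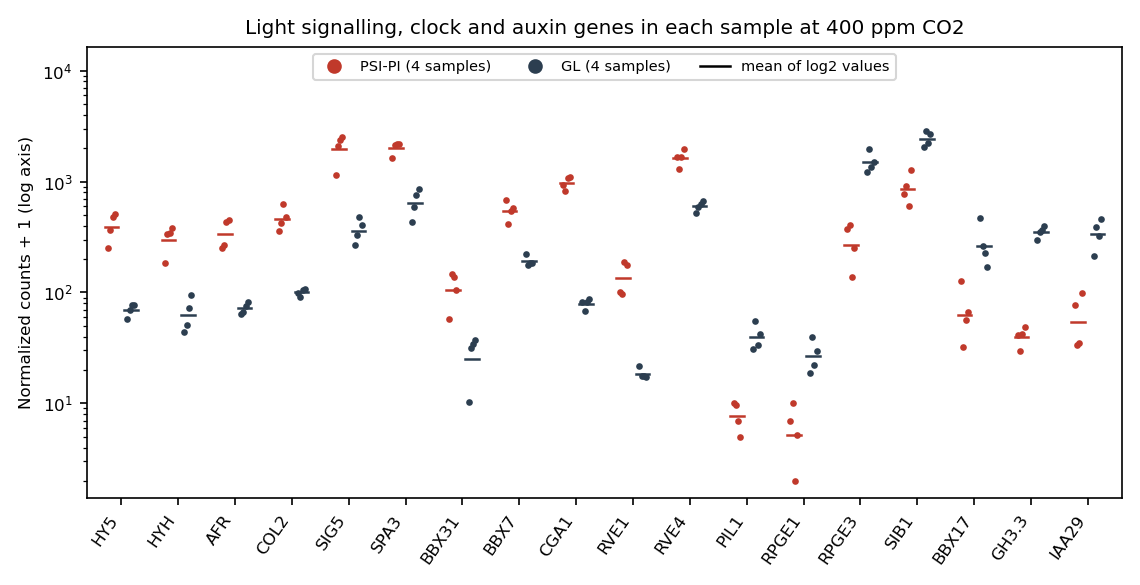
Normalized counts plus 1 (log axis) of 18 genes of light signalling, clock and auxin in each PSI-PI sample (left of each pair) and GL sample (right), where a dot is a sample and a line the mean of the log2 values. HY5 to RVE4 lie higher under PSI-PI and PIL1 to IAA29 lower, without overlap in any of the 18.

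Transcripts of several PSII antenna genes fell, and their number depended on PSI-PI replicate 2. LHCB proteins bind chlorophyll in the light-harvesting complex of PSII (LHCII) and its minor antennae. Of 15 LHCB genes tested, 6 were downregulated and 1 was an upregulated DEG, with a median log2 fold change of -0.94. Without PSI-PI replicate 2, 2 remained downregulated, 1 was upregulated and the median was -0.67.

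LHCB2.2 had 19146, 9236, 17809.5 and 23926 normalized counts in PSI-PI-treated leaves, against 54083, 46054, 49662 and 45695 in GL-treated leaves (log2 fold change -1.56 ± 0.32, limma adjusted p = 0.000627, and -1.28 without PSI-PI replicate 2). LHCB1.1 had 26638, 14444, 25997 and 37868 under PSI-PI, against 64103, 59751, 69124 and 65682 in GL (log2 fold change -1.38 ± 0.34, limma adjusted p = 0.00304, and -1.12 without that replicate). LHCB3 had 48822, 21559, 32126 and 48439.6 under PSI-PI, against 86199.6, 84619, 81394 and 84688 in GL (log2 fold change -1.24 ± 0.29, limma adjusted p = 0.00248, and -0.99 without it). Each PSI-PI value was below each GL value, and PSI-PI replicate 2 was the lowest sample in all 3 genes. LHCB2.3 (-1.81), LHCB4.2 (-1.14) and LHCB2.1 (-1.04) were the others that fell, and without that replicate their log2 fold changes were -1.36 (limma adjusted p = 0.0832), -0.97 and -0.83, so that none of the 3 kept its call. LHCB6, a minor antenna protein, had a log2 fold change of -0.85 ± 0.24 (limma adjusted p = 0.0102). LHCB1.4 had 33726, 2183, 13076 and 34159 under PSI-PI, against 53459, 27008, 32547 and 24706 in GL, and was not called. LHCB1 and LHCB2 genes are close copies of each other, so that their single values are uncertain. LHCB7, a rare member, rose instead, with 383, 572, 617 and 604 under PSI-PI, against 169, 199, 224 and 215 in GL (log2 fold change 1.41 ± 0.18, limma adjusted p = 1.45e-06).

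PSI itself is built from nuclear and plastid-encoded subunits. None of 12 nuclear PSI genes was a DEG, and 3 were lower at an adjusted p under 0.05, namely PSAD1 (-0.50 ± 0.18), PSAD2 (-0.75 ± 0.19) and PSAH2 (-0.61 ± 0.20). PSAD2, the ferredoxin docking subunit, had 32184, 21614, 25175 and 32568 normalized counts under PSI-PI, against 51461, 47132, 44604 and 41799 in GL. The groups did not overlap, and the median of the list was -0.33 with and -0.16 without PSI-PI replicate 2. PSAN had a log2 fold change of 0.17 ± 0.24. The PSI antenna gene LHCA6, whose protein joins PSI to the NDH complex, was the 1 DEG of 6 LHCI genes (5182, 3877, 6059 and 5718 under PSI-PI, against 1955, 2393, 2434 and 2772 in GL). Of 10 PSII genes, PSBP2 was upregulated (1.25 ± 0.15). No gene of the chloroplast ATP synthase (4 tested) or cytochrome b6f (2 tested) was a DEG, and both cytochrome b6f genes were higher at an adjusted p under 0.05.

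Most genes of cyclic electron flow were higher under PSI-PI, the larger part by less than 2-fold. The NDH complex and the PGR5 and PGRL1 proteins return electrons from ferredoxin to plastoquinone. Of 24 NDH and PGR genes, 22 were higher at an adjusted p under 0.05 and 6 were upregulated DEGs (7 without PSI-PI replicate 2, with PnsB3), none was lower, and the median log2 fold change was 0.82. NdhM had 6724, 6800.4, 6969 and 7235 normalized counts in PSI-PI-treated leaves, against 1939.7, 2601, 2356 and 2449 in GL-treated leaves (log2 fold change 1.58 ± 0.13, limma adjusted p = 2.12e-09). PnsL3 had 2222, 2110.4, 2603 and 2298 under PSI-PI, against 693, 924, 956 and 1097 in GL (log2 fold change 1.35 ± 0.18, limma adjusted p = 3.26e-06). PQL3, a PsbQ-like subunit, had 258, 223, 368 and 286 under PSI-PI, against 65.9, 93.6, 70.6 and 138 in GL (log2 fold change 1.65 ± 0.31, limma adjusted p = 0.000278). NdhM differed little among the PSI-PI samples, and all 3 genes were without overlap. NdhT (1.17), PnsL2 (1.07) and NdhN (1.0) were the other DEGs, and NdhN stood at the fold threshold, with 0.95 to 1.0 without any of 4 samples. PGR5 was higher by 0.87 ± 0.14 and PGRL1A by 0.50 ± 0.13, both below that threshold and without overlap. PnsL5 had a log2 fold change of 0.03 ± 0.14.

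Ferredoxins carry electrons from PSI to their acceptors, FNR among them. Of 5 genes of this list, 4 were higher at an adjusted p under 0.05 and none was a DEG. FD1 had 5872, 6829.5, 7894 and 8247 normalized counts under PSI-PI, against 3348, 3082, 4813 and 4253 in GL (log2 fold change 0.91 ± 0.22, limma adjusted p = 0.00289). FD2, the main leaf ferredoxin, had 50645, 41491, 56476 and 52872 under PSI-PI, against 25168, 30675, 35719.5 and 24993 in GL (log2 fold change 0.80 ± 0.27, limma adjusted p = 0.0276). The reductases FNR1 and LFNR2 were higher by 0.56 ± 0.15 and 0.66 ± 0.15. None of these 4 overlapped, and the root ferredoxin FD3 had a log2 fold change of -0.19 ± 0.15.

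Tetrapyrrole synthesis makes chlorophyll and heme. Of 30 tetrapyrrole genes, 3 were downregulated DEGs (2 without PSI-PI replicate 2) and the list's median was 0.14. GUN4, which activates magnesium chelatase, had 1523, 1191, 1745 and 1685 normalized counts under PSI-PI, against 3819, 2837, 3733 and 3086 in GL (log2 fold change -1.14 ± 0.24, limma adjusted p = 0.000713). PORB, a light-dependent protochlorophyllide reductase, had 16029.7, 8561, 12623 and 11090.2 under PSI-PI, against 25065, 24370.5, 24231 and 24508 in GL (log2 fold change -1.06 ± 0.19, limma adjusted p = 0.000158, and -0.91 without PSI-PI replicate 2). PORA had 2.36, 0, 1.01 and 2.06 under PSI-PI, against 25.3, 13.8, 14.7 and 10.5 in GL. All 3 fell without overlap. NYC1, the chlorophyll b reductase that starts chlorophyll breakdown, had 8616, 7625, 8839 and 9074 under PSI-PI, against 3367, 3517, 3759 and 3377 in GL (log2 fold change 1.28 ± 0.10, limma adjusted p = 9.37e-10). Of 14 carotenoid genes, 11 were higher at an adjusted p under 0.05 and 2 were DEGs. BCH1, a carotene hydroxylase, had 666, 725, 1141 and 1086 under PSI-PI, against 318, 234, 259 and 314 in GL (log2 fold change 1.65 ± 0.24, limma adjusted p = 1.13e-05), and the cleavage dioxygenase CCD4 rose by 1.08 ± 0.22 (0.99 without GL replicate 1). Of 9 light-harvesting-like genes, OHP1 (1.05, and 0.96 without PSI-PI replicate 4) and SEP2 (1.06) were upregulated. ELIP1, an early light-induced protein and marker of excess light, had 53.2, 77.8, 87.2 and 79.7 under PSI-PI, against 33.8, 61.5, 55.9 and 47.7 in GL, with overlap.

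**Figure D4:**
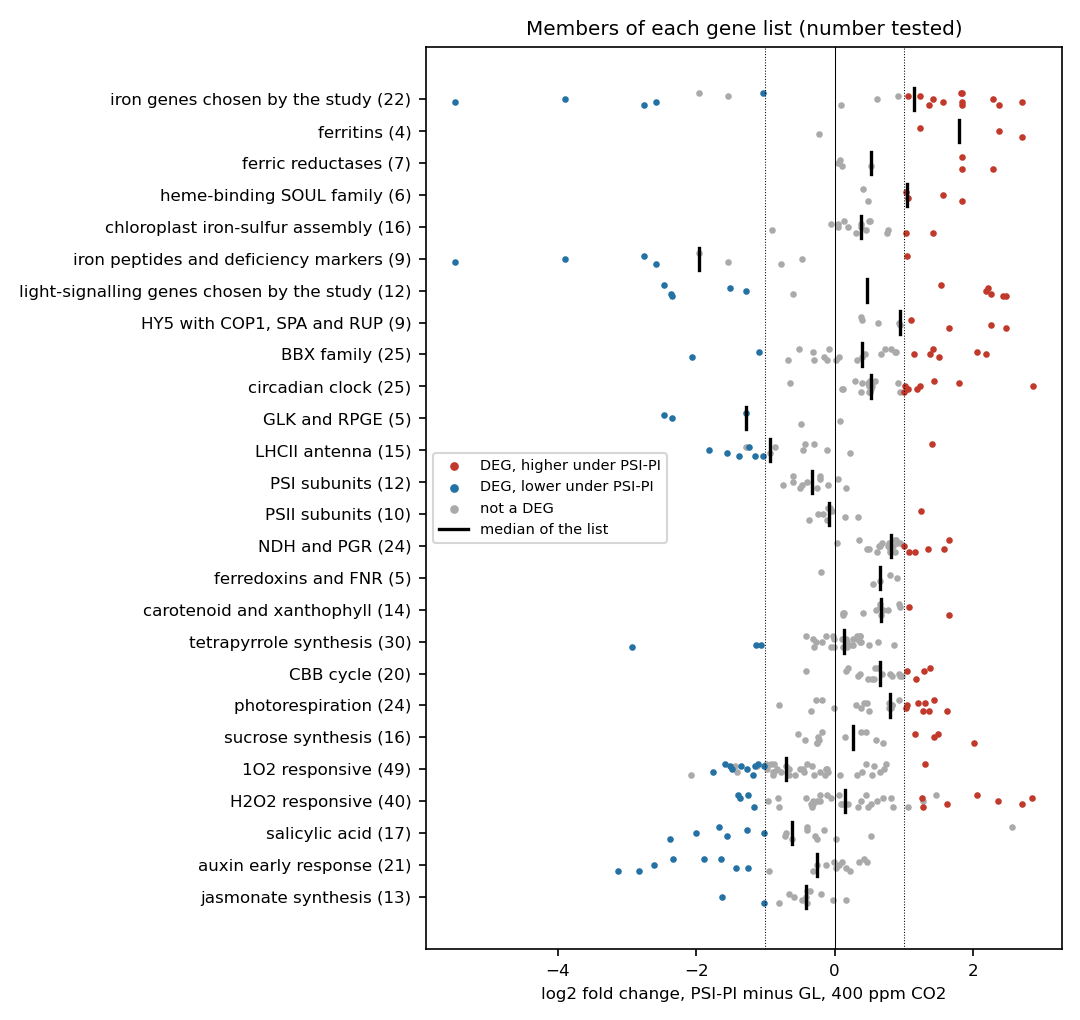
Each dot is a gene of the named list, placed by its log2 fold change of PSI-PI minus GL at 400 ppm CO2, with DEGs in color, the number tested in parentheses and a black bar at the list's median. The NDH, photorespiration and Calvin-Benson-Bassham (CBB) lists lie mostly to the right of 0 and the LHCII and singlet oxygen lists to the left, while the median of all tested genes is -0.01.

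Genes of carbon fixation and photorespiration rose in part and none fell past both thresholds. Of 20 genes of the CBB cycle, which fixes CO2, 14 were higher at an adjusted p under 0.05, 4 were upregulated DEGs (6 without PSI-PI replicate 2) and none was lower, with a median log2 fold change of 0.66. RCA, Rubisco activase, had 280108, 267300, 343526 and 315250 normalized counts in PSI-PI-treated leaves, against 104266, 128524, 143176 and 160538 in GL-treated leaves (log2 fold change 1.18 ± 0.29, limma adjusted p = 0.00318, and 0.96 after quantile normalization). FBA1, a plastid aldolase, had 60629.5, 69582, 75766 and 64692 under PSI-PI, against 16489, 26856, 30487 and 33408 in GL (log2 fold change 1.38 ± 0.24, limma adjusted p = 9.37e-05). CP12-2, a regulator of the cycle, had 27789.8, 27914, 29641 and 30490.4 under PSI-PI, against 10923, 12374, 11369 and 12388 in GL (log2 fold change 1.3 ± 0.12, limma adjusted p = 6.31e-09). The groups were apart in all 3. RBCS2B, a Rubisco small subunit with near-identical copies, had 241608, 146919, 284221 and 265514 under PSI-PI, against 115355, 103756, 100948 and 123689 in GL (log2 fold change 1.04 ± 0.37, limma adjusted p = 0.0402), and its limma adjusted p was 0.0573 to 0.111 without any 1 sample other than PSI-PI replicate 2. Without that replicate RBCS2B had a log2 fold change of 1.25 (limma adjusted p = 0.0211), and after quantile normalization one of 0.64 (limma adjusted p = 0.2).

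Photorespiration recovers carbon after Rubisco takes up oxygen, through peroxisomes and mitochondria. Of 24 genes, 16 were higher and 1 lower at an adjusted p under 0.05, and 8 were upregulated DEGs, with a median log2 fold change of 0.80. GLDP1, a glycine decarboxylase subunit, had 119007, 127158, 158943 and 132941 normalized counts under PSI-PI, against 36901, 44392, 61444 and 59285 in GL (log2 fold change 1.44 ± 0.36, limma adjusted p = 0.00394). SGAT, the serine-glyoxylate aminotransferase, had 73349.8, 66701, 79999 and 85589.6 under PSI-PI, against 27237, 29466, 31983 and 29879 in GL (log2 fold change 1.36 ± 0.15, limma adjusted p = 3.16e-07). The peroxisomal catalase CAT2 had 23609, 33248, 37978 and 30403 under PSI-PI, against 5732, 8982, 16652 and 11670.4 in GL (log2 fold change 1.63 ± 0.33, limma adjusted p = 0.000565). Every PSI-PI sample was above every GL sample in the 3 genes, and the GL samples of CAT2 differed by nearly 3-fold. HPR1 (1.31), GLDP2 (1.27), the glycolate oxidase GOX1 (1.2) and the aminotransferases GGAT2 (1.04) and GGAT1 (1.04) were the other DEGs, of which both aminotransferases fell below the fold threshold without some single samples (0.91 for GGAT2 and 0.97 for GGAT1 without GL replicate 1). BASS6, a glycolate transporter, was the member that was lower, with a log2 fold change of -0.80 ± 0.16.

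Sucrose carries fixed carbon out of the leaf. Of 16 sucrose synthesis genes, 4 were upregulated DEGs and the median was 0.27. FBA5 had 82757, 68882, 98345 and 88372 normalized counts under PSI-PI, against 17066, 20189.6, 22023 and 24495 in GL (log2 fold change 2.01 ± 0.22, limma adjusted p = 1.8e-07). FBP, the cytosolic fructose bisphosphatase, had 11887, 11601, 13920.4 and 16348 under PSI-PI, against 4812, 5811, 6332 and 7121 in GL (log2 fold change 1.16 ± 0.16, limma adjusted p = 3.53e-06). The pyrophosphorylase UGP2 (1.5) and the aldolase FBA7 (1.44) rose as well. None of 17 starch synthesis genes was a DEG, and of 18 starch degradation genes the beta-amylase BAM6 was upregulated (1.25 ± 0.22). Higher at an adjusted p under 0.05 were 8 of the synthesis genes, with 1 lower, and 7 of the degradation genes. Over all tested genes 13.8% were higher and 11.0% lower by that rule. Of 8 carbonic anhydrases, BCA2 had 44269, 32467, 49368 and 46967 under PSI-PI, against 8493, 10641, 12440.5 and 14827 in GL (log2 fold change 1.91 ± 0.35, limma adjusted p = 0.000162). DIN10, a gene of darkness and sugar starvation, had 8791, 2476, 9821 and 9173 under PSI-PI, against 5079.9, 2530.1, 1609 and 1555 in GL. PSI-PI replicate 2 lay within the GL samples, and the limma adjusted p of 0.0429 became 0.0688 to 0.125 when any of 6 other samples was left out. Without PSI-PI replicate 2 the log2 fold change of DIN10 was 1.96 (limma adjusted p = 0.00889), against 1.48 with it, and after quantile normalization its limma adjusted p was 0.0899. TPS9, of the trehalose phosphate synthase family, rose by 1.15 ± 0.25.

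Lists of genes linked to hydrogen peroxide or singlet oxygen were taken from the study. Its hydrogen peroxide list was drawn from annotation terms for oxidative stress and for the response to hydrogen peroxide and its breakdown. Of 40 hydrogen peroxide genes, 7 were upregulated and 4 downregulated DEGs, with a median of 0.15. BT1, BT2, BT3 and BT5 were among those that rose, BTB-domain scaffolds that respond to nutrients and sugars, and FER1 and CAT2 are also in this list. BT5 had 484, 302, 753 and 723 normalized counts under PSI-PI, against 138, 62.4, 65.0 and 49.5 in GL (log2 fold change 2.86 ± 0.40, limma adjusted p = 5.88e-06). BT1 had 1213, 2237, 1661 and 1421 under PSI-PI, against 217, 432, 651 and 344 in GL (log2 fold change 2.06 ± 0.46, limma adjusted p = 0.00136). BT2 rose by 2.36 ± 0.63 at low counts and BT3 by 1.28 ± 0.18. Those that fell included the kinase kinase MEK1 (-1.4 ± 0.20).

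Of 49 singlet oxygen genes, 22 were lower at an adjusted p under 0.05, 10 were downregulated DEGs (13 without PSI-PI replicate 2) and 1 was upregulated, and the median was -0.70. UCP5, a mitochondrial carrier, had 419, 529, 382 and 445 normalized counts under PSI-PI, against 1443, 1529, 1424 and 1559 in GL (log2 fold change -1.75 ± 0.19, limma adjusted p = 1.96e-07). MKK4, a stress MAP kinase kinase, had 205, 295, 178 and 236 under PSI-PI, against 604, 664, 601 and 658 in GL (log2 fold change -1.49 ± 0.23, limma adjusted p = 1.9e-05). The pectin methylesterase gene PME41 had 199, 51.3, 184 and 379 under PSI-PI, against 783, 419, 418 and 431 in GL, and lost its call without PSI-PI replicate 2 (limma adjusted p = 0.0862) and without GL replicate 1 (0.0552). UCP5 and MKK4 kept the treatments far apart. PADRE rose by 1.31 ± 0.32. Among antioxidant genes, VTC2, of ascorbate synthesis, had 10282, 18569, 15306 and 15259.7 under PSI-PI, against 4191, 5652, 7692 and 6014 in GL (log2 fold change 1.34 ± 0.21, limma adjusted p = 3.44e-05), and the plastid peroxidase GPX7 rose by 1.4 ± 0.26. None of 8 superoxide dismutases was a DEG, with the iron enzyme FSD1 at a log2 fold change of 0.44 ± 0.31 with overlap, and the copper transporter COPT2 rose by 1.62 ± 0.28.

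Several salicylic acid genes fell. Of 17 tested, 6 were downregulated DEGs (5 without PSI-PI replicate 2), 8 were lower and none higher at an adjusted p under 0.05, and the median log2 fold change was -0.62. WRKY70, a factor that sets the balance of salicylic acid and jasmonate outputs, had 1181, 1428, 934 and 3522 normalized counts in PSI-PI-treated leaves, against 6405, 6282, 5988 and 5946 in GL-treated leaves (log2 fold change -2.0 ± 0.50, limma adjusted p = 0.00402). EDS1, a central immune regulator, had 450.1, 485, 358 and 530.4 under PSI-PI, against 1177, 1120.1, 1121 and 938 in GL (log2 fold change -1.26 ± 0.29, limma adjusted p = 0.00163). NIMIN1, which binds the receptor NPR1, had 46.3, 74.7, 31.6 and 171 under PSI-PI, against 419, 319, 304 and 357 in GL (log2 fold change -2.38 ± 0.70, limma adjusted p = 0.0127). In these 3 genes the treatments were apart, and PSI-PI replicate 4 was the highest of its group. SARD1 (-1.67), DMR6 (-1.56) and EDS5 (-1.02) were the others. EDS5, whose treatments overlapped, and DMR6 had limma adjusted p-values of 0.0451 and 0.0371, and lost their calls without any of 7 and 6 single samples. Without PSI-PI replicate 3 these p-values were 0.198 and 0.128, that of SARD1 was 0.0692 and that of NIMIN1 0.0575, and without GL replicate 1 that of SARD1 was 0.0551. ICS1, the synthesis enzyme, had a log2 fold change of 0.02 ± 0.57, and the output gene PR1 had 92.3, 9.96, 156 and 4.15 under PSI-PI, against 4.71, 3.67, 2.75 and 5.74 in GL, with no call. Of 16 rapid stress factors WRKY18 fell, by -1.24 ± 0.44, with a limma adjusted p of 0.0666 to 0.129 without any of 6 samples, and WRKY40 was a downregulated DEG as well without PSI-PI replicate 2.

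A part of the early auxin genes also fell. Of 21 tested, 8 were downregulated DEGs (6 without PSI-PI replicate 2) and none was upregulated, with a median of -0.26. GH3.3, which conjugates auxin to amino acids, had 40.1, 28.8, 41.5 and 47.4 normalized counts under PSI-PI, against 296, 348, 362 and 395 in GL (log2 fold change -3.13 ± 0.42, limma adjusted p = 3.16e-06). IAA29 had 75.9, 32.8, 33.7 and 98.0 under PSI-PI, against 211, 388, 322 and 459.6 in GL (log2 fold change -2.61 ± 0.62, limma adjusted p = 0.0026). YUC9, of auxin synthesis, had 8.26, 0, 3.04 and 4.13 under PSI-PI, against 18.7, 30.3, 19.2 and 38.0 in GL (log2 fold change -2.83 ± 0.58, limma adjusted p = 0.000588). None overlapped, and GH3.3 differed by at least 6-fold between any pair of samples across treatments. GH3.2 (-2.34), YUC8 (-1.88), IAA5 (-1.65), GH3.5 (-1.43) and IAA19 (-1.25) fell as well, and IAA5 and IAA19 lost their call without any of 5 and 7 single samples (limma adjusted p = 0.0712 to 0.164 and 0.0565 to 0.0836). YUC8 lost it without PSI-PI replicate 3 (limma adjusted p = 0.0595).

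Counts for jasmonate and related lists stand beside 3.28% of all tested genes upregulated and 2.91% downregulated. Of 13 jasmonate synthesis genes, AOC3 (-1.63 ± 0.42) and OPCL1 (-1.01 ± 0.24) were downregulated, both with PSI-PI replicate 2 inside the GL values, and OPCL1 had -0.98 to -0.84 without any of 5 samples. AOC3 had 70.8, 226, 39.5 and 52.6 normalized counts under PSI-PI, against 193, 279, 288 and 208 in GL. Of 13 JAZ repressors, JAZ1 fell (136, 285, 65.9 and 156 under PSI-PI, against 375, 538, 519 and 359.7 in GL), with a limma adjusted p of 0.034 that was 0.0506 to 0.141 without any of 6 samples. The 68 jasmonate-responsive genes of the study held 3 upregulated and 3 downregulated DEGs (2 and 4 without PSI-PI replicate 2), and the 62 genes responsive to its precursor OPDA held 7 and 2. Of 23 glucosinolate genes, SOT16 fell (-1.29 ± 0.28), and without PSI-PI replicate 2 there were 5 downregulated DEGs. The alternative NAD(P)H dehydrogenase NDA2 fell by 1.14 ± 0.17. No gene of abscisic acid (14 tested), alpha-expansins (11), heat shock (17), nitrate and ammonium (11) or sulfate (11) was a DEG. DEGs made up 6.19% of all tested genes, so that their absence from lists this short says little. At an adjusted p under 0.05, 2 abscisic acid genes were higher. So was 1 gene each of the heat shock, nitrate and ammonium, and sulfate lists, and 1 sulfate gene was lower. Without PSI-PI replicate 2, HSP70 of the heat shock list was downregulated (-1.37) and the sulfate transporter SULTR1;2 upregulated (1.07), against -0.88 and 0.94 with it. Of 81 plastid-encoded genes 4 were upregulated and none downregulated, and of 103 mitochondria-encoded genes none was called.

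The response at 400 ppm was set against those at the other CO2 levels by testing the difference between the responses in the same fit. PSI-PI gave 288 DEGs at 0 ppm, 443 at 100 ppm, 1330 at 400 ppm and 562 at 1000 ppm. The response at 400 ppm differed from that at 0 ppm for 643 genes (3.00% of those tested, 408 higher and 235 lower at 400 ppm), of which 171 were upregulated and 66 downregulated DEGs at 400 ppm. Without 1 sample at 400 ppm this count was 402 (PSI-PI replicate 3), 413 (GL replicate 3) or 414 (GL replicate 4), and up to 581 without another. It differed from that at 100 ppm for 10 genes (0.0466%) and from that at 1000 ppm for none, with 1645 genes at an unadjusted p under 0.05 in limma and a lowest adjusted p of 0.167. The count against 100 ppm was 283 when the samples at 0 ppm were left out of the fit. Counts of DEGs at different CO2 levels do not test a difference between them.

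CGA1 was among the genes whose response was larger at 400 ppm than at 0 ppm, with log2 fold changes of 0.45 at 0 ppm, 2.19 at 100 ppm, 3.62 at 400 ppm and 3.06 at 1000 ppm (difference from 0 ppm 3.17 ± 0.39, limma adjusted p = 1.14e-05). RVE1 had 0.44, 2.85, 2.87 and 3.39 in the same order (difference 2.43 ± 0.58, limma adjusted p = 0.0176). BT5 had 0.32, 1.56, 2.86 and 2.92 (difference 2.54 ± 0.56, limma adjusted p = 0.0102). At 0 ppm none of the 3 was called, and at the 3 higher CO2 levels all 3 rose. CGA1 in GL had a mean of 414 normalized counts at 0 ppm and 78.6 at 400 ppm, against 560 and 981 under PSI-PI. AT1G33055 and AT2G29370, among the largest rises at 400 ppm, and AT5G42825 also responded more than at 0 ppm. Mean GL levels at 0 and 400 ppm were 74.5 and 4.18 for AT2G29370 and 301 and 16.9 for AT5G42825. Under PSI-PI these 2 genes had 45.8 and 42.2, and 607 and 460. AT1G33055 had GL means of 3.24 and 0.467 and PSI-PI means of 3.58 and 17.8. AT4G31875, an uncharacterized protein with the largest positive difference, fell at 0 ppm, where it had 0.258 ± 0.516 normalized counts under PSI-PI, against 42.4 ± 32.4 in GL (SD, n = 4 each), and was near 0 in both treatments at 400 ppm. Members of the lists with a larger response at 400 ppm than at 0 ppm were FRO7, cHBP3, NdhM, NYC1, CCD4, CP12-2, SGAT, TPS9, BT3, RVE4, RVE7 and LNK4, with differences of 0.67 (CP12-2) to 1.52 (CCD4).

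A lower response at 400 ppm than at 0 ppm was found for 4 of 15 LHCB genes tested. The differences given here include PSI-PI replicate 2. LHCB1.1 had log2 fold changes of 0.38, -0.67, -1.38 and -0.29 at 0, 100, 400 and 1000 ppm (difference from 0 ppm -1.76 ± 0.48, limma adjusted p = 0.0385). LHCB3, LHCB4.2 and LHCB6 differed likewise, and PORB had 0.21, -0.77, -1.06 and -0.55. LHCB1.1, LHCB3, LHCB4.2 and PORB fell past both thresholds at 400 ppm, the last 3 of them not without PSI-PI replicate 2. For none of these antenna genes or PORB was a difference between 400 ppm and 100 or 1000 ppm called. PIF3, a bHLH factor that represses chloroplast development in darkness, had 1.2, -0.27, -0.46 and -0.41 (difference -1.66 ± 0.16, limma adjusted p = 2.56e-07). It was higher under PSI-PI at 0 ppm and lower at 400 and 1000 ppm. BG3 had -0.24, -1.94, -3.80 and -1.26 (difference -3.55 ± 0.73, limma adjusted p = 0.00487), and the bHLH gene AT3G21330, EXPB1, GH3.5, UCP5, MKK4, MEK1 and BASS6 also had a lower response at 400 ppm. Mean GL levels at 0 and 400 ppm were 588 and 2240 for BG3, 5.87 and 91.4 for EXPB1 and 4.01 and 20.4 for AT3G21330. The last 2 were so low in GL at 0 ppm that a fall there could only be small.

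The 5 most negative differences belonged to genes that PSI-PI raised at 0 ppm. CIB1, a bHLH partner of cryptochrome, had 653 ± 141 normalized counts under PSI-PI at 0 ppm (SD, n = 4) and was listed at 0 in every GL sample there. At 400 ppm it had 107, 126, 242 and 144 under PSI-PI, against 59.0, 80.7, 77.8 and 63.7 in GL, and was not called. Its treatments did not overlap at 400 ppm, but the log2 fold change was 1.07 ± 1.41, with a standard error pooled over all groups of the fit. AT5G57760, an uncharacterized protein, rose by 6.65 at 0 ppm and had a log2 fold change of -1.59 at 400 ppm. At 0 ppm the phosphatase AT5G02760, the organ size gene ARGOS and the kinase kinase MKK7 rose by 3.93, 2.62 and 4.03, with -1.13, -1.91 and -0.45 at 400 ppm, where ARGOS was a DEG that lost its call without any of 3 samples (limma adjusted p = 0.0592 to 0.118). In a fit of the 8 samples at 400 ppm alone, ARGOS had a limma adjusted p of 0.0719, and of 0.102 with the replicate block there.

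Against 100 ppm, AT5G42825 differed most among genes called, with a log2 fold change of 0.48 at 100 ppm and 4.97 at 400 ppm (difference 4.49 ± 0.77, limma adjusted p = 0.0198). Its PSI-PI level was 459 ± 143 normalized counts at 100 ppm and 459.9 ± 127 at 400 ppm, while its GL level was 323 ± 72.0 and 16.9 ± 13.7 (SD, n = 4 each). EBP, an ethylene response factor, fell by 1.08 at 100 ppm and rose by 1.97 at 400 ppm (difference 3.04 ± 0.37, limma adjusted p = 0.000164). At 400 ppm it had 3190.4, 2719, 2977 and 3723 normalized counts under PSI-PI, against 1356, 799, 698 and 543 in GL. The AP2 factor AT1G22190 and the Rossmann-fold protein AT2G29290 rose by 1.69 and 1.66 at 400 ppm, with 0.45 and 0.44 at 100 ppm. AT3G53250, a SAUR-like auxin gene, had -2.86 at 100 ppm and 1.3 at 400 ppm at low counts. The zinc finger gene AT1G14580 was the 1 gene of the 10 with a lower response at 400 ppm, -1.2 against -0.03 at 100 ppm.

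No difference from 400 ppm was called at any CO2 level for most of the iron and light-signalling genes. FER3 rose by 2.79, 1.90, 2.38 and 3.04 at 0, 100, 400 and 1000 ppm. HY5 rose by 1.88, 2.01, 2.48 and 1.97, and AT5G05250 had -4.80, -5.17, -5.49 and -6.25. Each of these 12 values passed both thresholds. Of the 22 iron genes chosen by the study, 2 (FRO7 and cHBP3) had a response that differed from that at 0 ppm, and none of the 12 light-signalling genes did. The study chose both lists on these samples at all CO2 levels, so that a direction shared between levels is not independent evidence. A difference that is not called does not show that responses were equal.

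**Figure D5:**
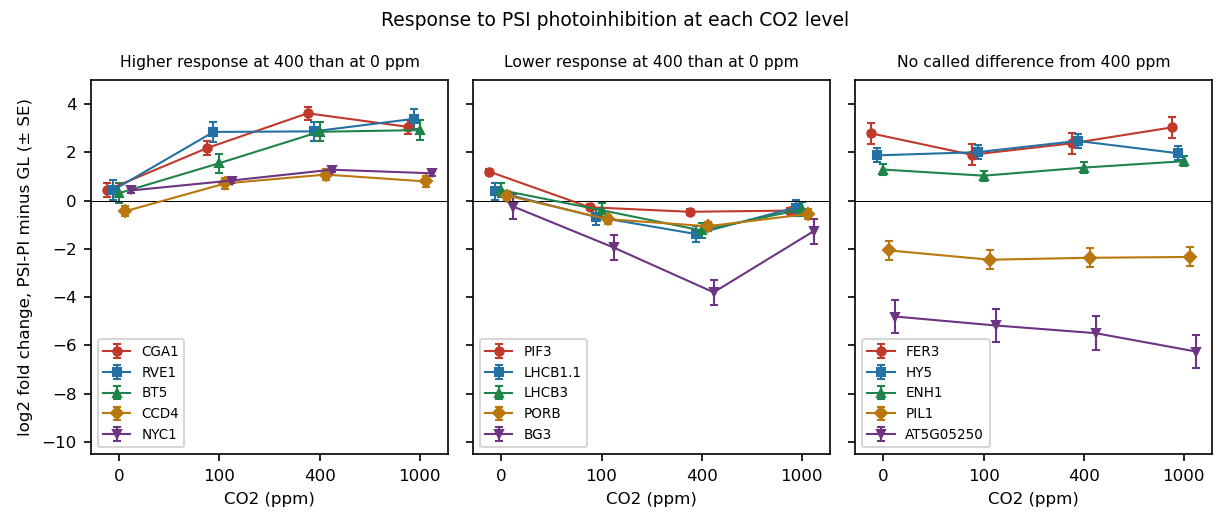
Log2 fold change of PSI-PI minus GL (± SE, 4 samples a group) at 0, 100, 400 and 1000 ppm CO2, evenly spaced, for 5 genes with a larger response at 400 than at 0 ppm, 5 with a lower one and 5 with no called difference. CGA1 is at 0.45 at 0 ppm and at 3.62 at 400 ppm, PIF3 is above 0 at 0 ppm alone, and FER3, HY5, ENH1, PIL1 and AT5G05250 keep their direction at all 4 levels. These last 5 genes belong to the lists that the study chose on these samples.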

How the data were processed

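Leaf RNA of 32 samples was sequenced and mapped by the authors to TAIR10 cDNA with Salmon v0.12, transcript estimates were summed to genes with tximport, and DESeq2 size factors were applied. The deposited signal is therefore a normalized count per gene, 99.8% of the values above 0 were not whole numbers (further than 0.001 from one), and no count model was used. The authors' second table holds fold changes and p-values of their own comparisons and was not used. Raw read depth is not given in the sources used here, so that no counting interval is stated.

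Genes with a summed normalized count under 10 were removed (56 of 21525). Values were transformed to log2 of the normalized count plus 1 and fitted with limma 3.58.1 in R 4.3.3 (lmFit, eBayes with a mean-variance trend), with 1 mean for each of 8 groups, 24 residual degrees of freedom and no covariate. Contrasts were two-sided, and p-values were adjusted with the Benjamini-Hochberg method over 21469 genes. The fit was tested on simulated data with normal noise on the log2 scale and the same spread of a gene in every group. That test does not cover groups of unequal spread. A difference in response between CO2 levels was called at an adjusted p under 0.05. The labels call the samples biological replicates, and replicate numbers were not used to pair them.

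The genes named are the top 12 risers and top 12 fallers among non-overlapping DEGs whose mean reached 10 normalized counts under PSI-PI or GL, members of fixed lists, and up to 5 genes in each direction for each difference between CO2 levels. Members and lists were chosen with earlier results of these data known. Lists are described by counts and medians and were not tested as sets. Promoters are RefSeq windows of 250 bases in TAIR10.1, matched by locus identifier, and were missing for 189 tested genes. Alternatives changed the filter, pseudocount (0.5 or 5), scaling, samples in the fit, variance model, replicate block and call rule, and left out each sample. The replicate block within the 8 samples at 400 ppm was added after seeing the data. The promoter window of 1 gene is not reported here.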

Additional observations from a re-analysis of the deposited data

Results flagged for a closer look

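In 24 of 406 groups of 4 values examined (chance gives about 5% of groups), 1 sample lay far from the other 3, with a gap to its nearest neighbour that took up most of the range of the group. The share of the range is given in parentheses. PSI-PI replicate 1 was the highest for IMA1 (1.0), BBX14 (0.85) and RGF6 (1.0). PSI-PI replicate 1 was the lowest for SPA3 (0.91). PSI-PI replicate 2 was the highest for BASS6 (0.88) and AOC3 (0.83). PSI-PI replicate 2 was the lowest for DIN10 (0.86), AT1G33055 (0.83) and AT5G64190 (0.83). PSI-PI replicate 4 was the highest for DEFL (1.0), UGT76E1 (1.0) and AT5G03350 (0.86). PSI-PI replicate 4 was the lowest for NAS3 (0.90). GL replicate 1 was the highest for PME41 (0.97) and RVE1 (0.92). GL replicate 1 was the lowest for cHBP2 (0.83), PGRL1A (0.89) and LNK4 (0.83). GL replicate 2 was the highest for WRKY18 (0.87). GL replicate 3 was the highest for AT1G48750 (1.0). GL replicate 4 was the highest for FEP1 (0.86), IRP3 (0.89) and BTSL1 (0.84). GL replicate 4 was the lowest for VTL1 (0.90).

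The response to PSI-PI, as a log2 fold change, differed between CO2 levels for 45 named values in the limma test of the difference itself (adjusted p under 0.05). The response at 400 ppm minus that at 0 ppm was positive for FRO7 (1.27), cHBP3 (0.95), NdhM (0.75), NYC1 (0.86), CCD4 (1.52), CP12-2 (0.67), SGAT (0.86), TPS9 (1.4), BT3 (1.03), BT5 (2.54), RVE1 (2.43), RVE4 (0.96), RVE7 (0.93), LNK4 (0.70), AT5G42825 (3.58), AT1G33055 (3.59), CGA1 (3.17), AT2G29370 (3.59), AT4G31875 (5.26) and AT1G22190 (1.15). It was negative for PIF3 (-1.66), LHCB1.1 (-1.76), LHCB3 (-1.67), LHCB4.2 (-1.22), LHCB6 (-1.32), PORB (-1.27), BASS6 (-0.85), UCP5 (-1.48), MKK4 (-1.18), MEK1 (-1.04), GH3.5 (-1.97), BG3 (-3.55), AT3G21330 (-3.22), EXPB1 (-2.62), CIB1 (-8.26), AT5G57760 (-8.24), AT5G02760 (-5.06), ARGOS (-4.53) and MKK7 (-4.48). The response at 400 ppm minus that at 100 ppm was called for AT5G42825 (4.49), AT3G53250 (4.16), EBP (3.04), AT1G22190 (1.24), AT2G29290 (1.22) and AT1G14580 (-1.16).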

How the results depend on the processing

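The number of DEGs stayed within 1.5 times of 1330 under every alternative that kept the call rule, between 1089 and 1383 when 1 sample was left out (616 to 792 upregulated and 473 to 691 downregulated), and reached 5326 without a minimum fold change (2960 and 2366). The replicate block gave 1338 DEGs (712 and 626) in all samples and 1489 in the 8 samples at 400 ppm. Deviations of same-numbered samples from their group means correlated at 0.073, 0.21, -0.008 and 0.026, not every sample correlated best with its own number, and with the block EDS5 had a limma adjusted p of 0.0524, as ARGOS had 0.102 with the block in the 8 samples. Differences from the response at 0 ppm numbered 402 to 581 without 1 sample. Differences from the response at 100 ppm, 10 in all samples, numbered 2 to 7 without 1 sample, 3 with the replicate block, 4 with no mean-variance trend, 35 after quantile normalization and 283 without the samples at 0 ppm, and the cause was not tested. Against 1000 ppm all alternatives run gave 0. Of 158 called genes among 203 named, 48 lost the call in at least 1 of 18 alternatives, 42 of them without 1 sample, and no named gene reversed. Quantile normalization ended 18 of these calls, those of RBCS2B (limma adjusted p = 0.2), DIN10 (0.0899) and IAA5 (0.0631) by the p-value and the others by log2 fold changes of 0.83 to 0.98 in size. Adding 5 in place of 1 ended those of IRP3, MYB72, FIT, NdhN and LNK2, adding 0.5 that of IAA5 (limma adjusted p = 0.0529), and a fit with no mean-variance trend those of DIN10 (0.0525) and EDS5 (0.0542). Samples at 0 ppm are absent from the fits of 8 and 24 samples, so that the difference from 0 ppm has no value there. Raw depth is unknown, and values near 1 normalized count are limited by it.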

Other observations

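Several lists outside the comparisons above gave single calls. Of 23 flavonoid genes, F3H and UGT78D2 were upregulated DEGs (UGT78D2 alone without PSI-PI replicate 2), and of 9 phosphate starvation genes MGD3 was (none without that replicate), with a median log2 fold change of 0.44 over the phosphate list. None of 10 thylakoid repair proteases and none of 8 thylakoid kinases and curvature proteins was a DEG, although 3 of each were higher at an adjusted p under 0.05. Without PSI-PI replicate 2 the kinase STN8 was an upregulated DEG (1.1, against 0.95 with it).

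PR1, the salicylic acid output gene, was low in GL leaves but spread widely under PSI-PI, at 92.3, 9.96, 156 and 4.15 normalized counts, against 4.71, 3.67, 2.75 and 5.74 in GL. LHCB1.4 spread over more than 15-fold among PSI-PI samples, with replicate 2 at the low end.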
